A study of Mus musculus with 6 samples.

Results

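The LIM homeobox genes encode transcription factors that join a pair of LIM domains, which bind other proteins, to a homeodomain, which binds DNA. The probes described here were all those that the platform annotation names Lhx1, Lhx2, Lhx3, Lhx4, Lhx5, Lhx6, Lhx8, Lhx9, Isl1 or Lmx1b. Of these 10 genes, 9 had a named probe, 1 each, among the 13769 gene symbols on the array, and no probe was named Lhx3. Lmx1a and Isl2, which belong to the same family but not to the 10, are given beside them. Messenger RNA was measured in the urogenital ridge, the embryonic tissue that gives rise to the gonad and the mesonephros. The knockout (KO) samples came from Mf1 mouse embryos in which both copies of Wt1, the Wilms tumour gene, carry a deletion. The wild-type (WT) samples came from Mf1 embryos without it. Both genotypes were taken at E11.5 with 11 to 12 tail somites, shortly before the sexes diverge. There were 3 KO and 3 WT arrays, each labelled with 5 pooled embryos of mixed sex. Separate pools for the arrays are not stated in the labels, and p-values then measure the spread between arrays alone, which may be technical.

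LIM homeodomain proteins act in complexes: LDB1 or LDB2 binds their LIM domains and can join a pair of them, SSBP proteins stabilise LDB, the ubiquitin ligase RLIM marks LDB for breakdown, and LIM-only (LMO) proteins compete for LDB. In the mouse, Lhx9 is needed for the gonad to form, and its protein can act with WT1 on the promoter of Nr5a1, the gene of steroidogenic factor 1. Lhx1 is needed for the nephric duct, Lhx2 and Lhx9 work in the limb bud together with Lmx1b, and Isl1 is a gene of motor and sensory neurons, of pancreatic endocrine cells and of stomach mesenchyme.

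The 3 LIM homeobox genes whose signal differed between the genotypes, Lhx9, Lmx1a and Isl1, are shown here by the 250 bases before a transcript start, as RefSeq gives them for GRCm38.p6 on the strand of the gene. The Lhx9 window lies at chr1:138842445-138842694 on the minus strand, the Lmx1a window at chr1:167689308-167689557 on the plus strand and the Isl1 window at chr13:116309689-116309938 on the minus strand. Capitals mark TAAT, the core that most homeodomains bind, on either strand (it reads ATTA on the other one).
Lhx9: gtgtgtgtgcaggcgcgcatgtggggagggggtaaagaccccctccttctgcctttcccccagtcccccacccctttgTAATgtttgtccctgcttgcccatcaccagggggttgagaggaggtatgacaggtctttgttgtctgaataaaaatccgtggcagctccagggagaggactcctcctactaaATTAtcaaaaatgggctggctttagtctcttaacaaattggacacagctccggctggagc
Lmx1a: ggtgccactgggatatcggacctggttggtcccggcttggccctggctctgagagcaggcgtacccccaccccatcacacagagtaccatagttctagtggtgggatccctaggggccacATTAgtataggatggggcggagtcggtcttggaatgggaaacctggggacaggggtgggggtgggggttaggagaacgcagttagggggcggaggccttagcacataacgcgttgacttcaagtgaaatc
Isl1: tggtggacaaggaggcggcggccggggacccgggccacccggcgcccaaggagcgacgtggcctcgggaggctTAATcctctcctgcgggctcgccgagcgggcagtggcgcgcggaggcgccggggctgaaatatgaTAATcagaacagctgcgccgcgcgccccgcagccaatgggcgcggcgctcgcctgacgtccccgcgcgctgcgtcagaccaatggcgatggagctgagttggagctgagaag
The core occurred at 2 places in the Lhx9 window, at 1 in that of Lmx1a and at 2 in that of Isl1. It was present in 54.9% of all 32851 promoter windows of this length. The letters GCGNGGGNG, a form of the GC-rich site that WT1 and EGR proteins bind, were searched on both strands and found in 10.5% of all windows. They were not in these 3 windows, while the Lhx1 window, the Lhx4 window and only 1 of the Lhx2 windows held them. Of the 10 genes, 9 had such a window, with 13 windows in all, and 5 of these genes had TAAT in at least 1 of their windows. That count is per gene and the 54.9% is per window, so they cannot be set side by side. These matches describe letters only.

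The arrays carry single-colour spot intensities on a linear scale, with a median between 0.956 and 0.966 on every array. A probe counts as dim here when the mean of its log2 values over the 6 arrays lies under the 25th percentile of all probes, an intensity of 0.217, and such probes were not tested. The targeted gene was lower on KO arrays. The brighter Wt1 probe had intensities of 14.3, 15.7 and 14.2 on KO arrays, against 44.1, 43.6 and 39.1 on WT arrays (log2 change -1.52 ± 0.08, SE, adjusted p = 1.13e-07, limma). The dimmer one had 0.268, 0.134 and 0.466 on KO arrays, against 0.785, 0.828 and 0.951 on WT arrays (log2 change -1.74, adjusted p = 0.00273, limma). No source used here places these probes relative to the deletion. Genotypes differed widely: 41.3% of the 15062 tested probes passed an adjusted p under 0.05 in limma's moderated test, 24.1% as higher and 17.2% as lower. KO arrays varied more among themselves than WT arrays, with a median SD of 0.153 against 0.0951 on the log2 scale. The balance of the sexes between the genotypes was not tested. The Y-linked gene Kdm5d was higher on KO arrays (log2 change 0.88, adjusted p = 1.45e-05, limma). Among X-linked genes, Kdm6a was lower (-0.89, adjusted p = 7.24e-06, limma) and Kdm5c did not pass (0.20, adjusted p = 0.145, limma). Counts of listed genes above the dim limit on all 6 arrays do not mark the tissue, because no share over all probes was taken. In lists for other tissues they ran from 2 of 6 motor neuron genes to 8 of 9 pan-neuronal genes. For the labelled tissue they were 8 of 10 gonadal regulators and 7 of 12 nephric duct and tubule genes with a probe. The mesenchymal factor gene Tcf21 (25.5 ± 0.855 in KO and 19.7 ± 0.159 in WT, SD, n = 3 each) and the tubule cadherin gene Cdh16 (10.7 ± 1.14 in KO and 12.0 ± 0.521 in WT) were among the bright ones, while the duct gene Pax8 (0.149 ± 0.0946 in KO and 0.203 ± 0.139 in WT), Sim1, Gfra1 and Cbx2 were too dim to be tested.

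Lhx9 fell and Isl1 rose in the KO ridge, and the other 4 tested genes of the family did not pass the test. Of the 9 genes with a probe, 6 were bright enough to be tested. The 2 that passed are 33.3% of these 6, beside 41.3% of all tested probes, so the share of the family that passed was not above that of the array. The median log2 change of the 6 was 0.13, against 0.09 over all tested probes. Genotypes did not overlap at 2 of the 6 genes, again Lhx9 and Isl1, and at 52.8% of all tested probes. Where Lhx9 stood out was in size: a fall of at least 2-fold that passed the test was seen at 3.12% of tested probes, and Lhx9 was rank 56 of 15062 when probes were ordered from the largest decrease. Because whole ridges were measured, fewer cells of a type and less RNA per cell cannot be told apart.

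**Figure D1:**
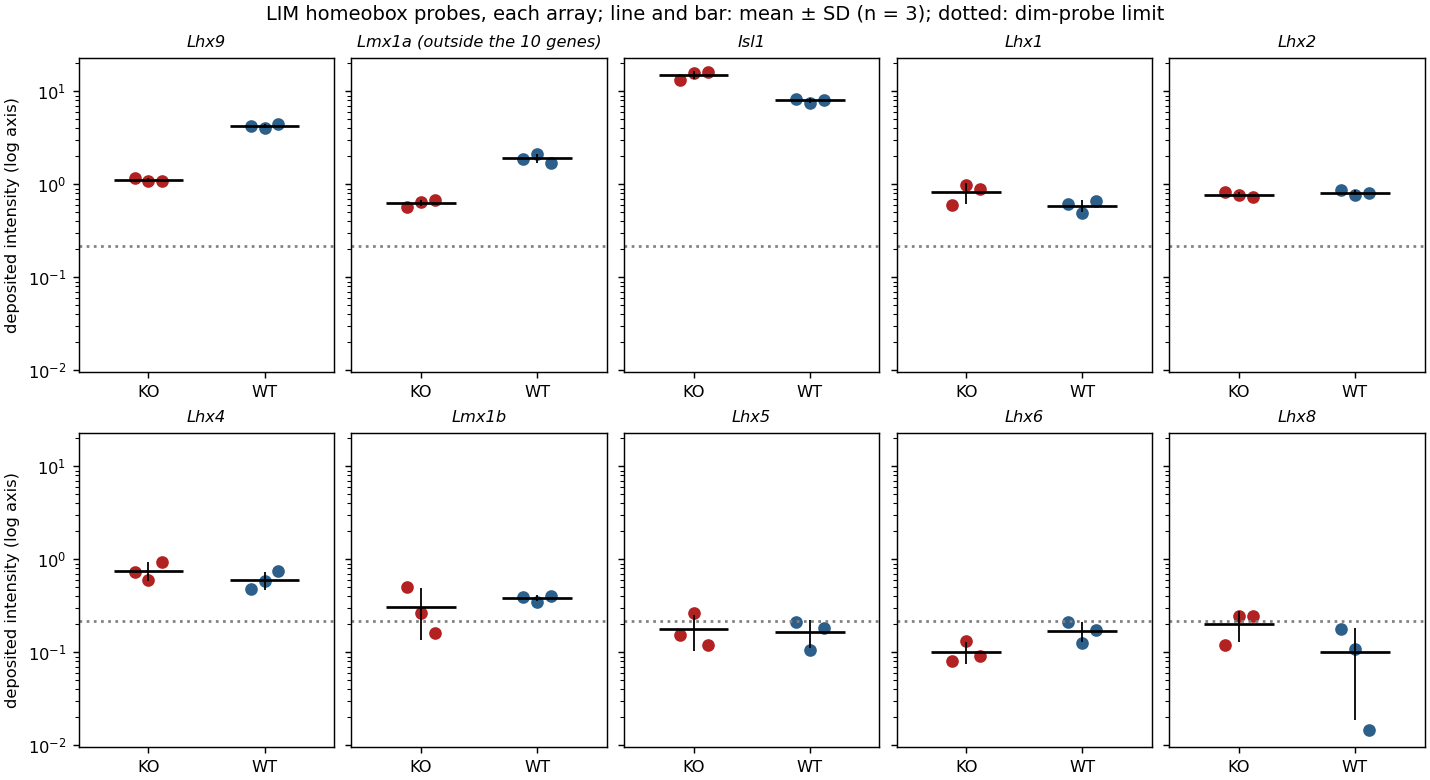
Deposited intensity (log axis) of each LIM homeobox probe on the 3 KO and 3 WT arrays, with the mean and SD as a line and a bar and the limit for dim probes dotted. Lhx9 and Lmx1a lie lower on every KO array, Isl1 lies higher on every KO array, and the points of Lhx5, Lhx6 and Lhx8 lie around or under the dotted line.

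Lhx9, the gene of the family with a known part in the early gonad, had intensities of 1.18, 1.09 and 1.09 on KO arrays, against 4.21, 4.02 and 4.46 on WT arrays. Every KO array lay far under every WT array, and the KO arrays differed among themselves by much less than the genotypes did. The means were 1.12 ± 0.0531 in KO and 4.23 ± 0.218 in WT (SD, n = 3 each). The log2 change was -1.92 ± 0.09 (SE, 95% interval -2.12 to -1.72), a 3.78-fold fall that left 26.4% of the WT signal, with adjusted p = 5.69e-08 in limma. The KO signal lay above the limit for dim probes on all 3 arrays, so the fold is a measured value and not a bound. The array holds 1 probe named Lhx9, and no source used here says which transcript forms of the gene it detects.

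Isl1, which encodes islet 1, moved the other way. Its probe had intensities of 13.4, 15.8 and 16.0 on KO arrays, against 8.35, 7.45 and 8.14 on WT arrays. The lowest KO array was still above the highest WT array, and the spread among KO arrays was wider than among WT arrays (means 15.1 ± 1.43 in KO and 7.98 ± 0.472 in WT, SD, n = 3 each). The log2 change was 0.92 ± 0.09 (SE, 95% interval 0.73 to 1.10), or 1.89-fold higher, with adjusted p = 1.05e-05 (limma). Ordered from the largest increase, Isl1 was rank 392 of 15062.

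**Figure D2:**
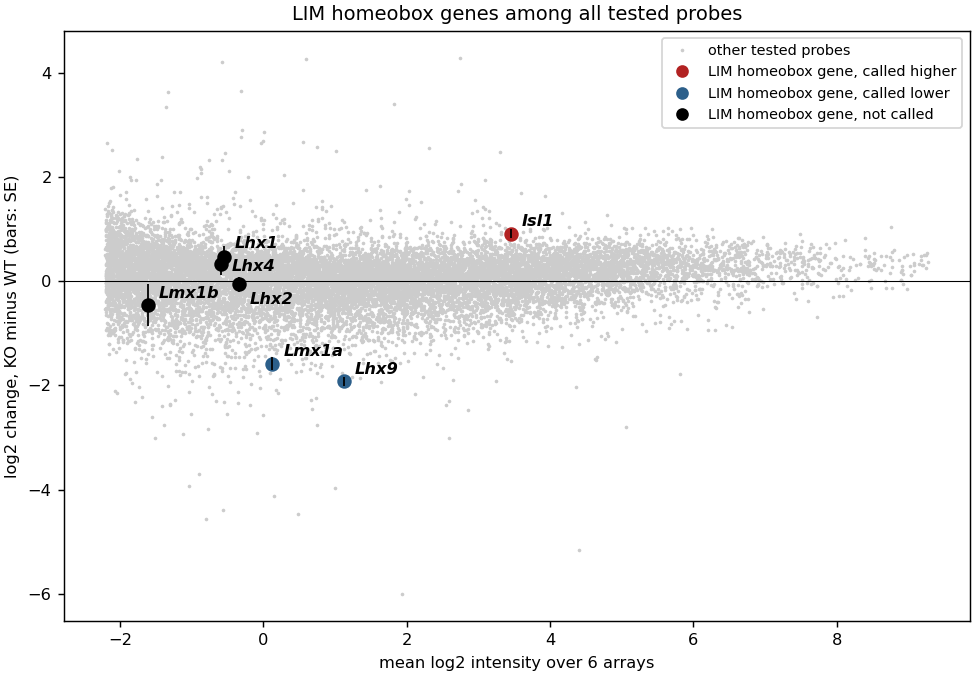
Log2 change, KO minus WT, against the mean log2 intensity over the 6 arrays for all tested probes (grey), with the LIM homeobox genes marked and their SE as bars. Lhx9 at -1.92 and Lmx1a at -1.58 lie below the main cloud of points and Isl1 at 0.92 lies at its upper edge, while Lhx1, Lhx2, Lhx4 and Lmx1b lie within it.

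Lmx1a, a roof plate gene in the neural tube and a relative of Lmx1b outside the 10 genes, fell as well. It had intensities of 0.575, 0.651 and 0.670 on KO arrays, against 1.89, 2.11 and 1.69 on WT arrays, with no overlap. The log2 change was -1.58 ± 0.13 (SE), a 2.99-fold fall, with adjusted p = 3.49e-06 in limma (rank 110 among the decreases). Isl2, a motor neuron gene and the relative of Isl1, was not tested, with intensities between -0.0123 and 0.115 on KO arrays and between -0.0133 and 0.189 on WT arrays, all under the limit for dim probes.

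Lhx2 is the closest relative of Lhx9 and shares roles with it in the limb bud. It had intensities of 0.819, 0.774 and 0.738 on KO arrays, against 0.865, 0.764 and 0.802 on WT arrays. The genotypes overlapped, and the log2 change of -0.06 had a 95% interval of -0.36 to 0.24 (adjusted p = 0.757, limma), which leaves out a change of the size seen for Lhx9. The log2 change of Lhx9 minus that of Lhx2 was -1.86. Against each of the 5 other tested genes this difference ran from -2.83 (against Isl1) to -1.46 (against Lmx1b). Lhx9 had the lowest log2 change of the tested members, so being lower in all 5 followed from taking it as the reference. The members were chosen with earlier results of these data known, and all 5 differences share the Lhx9 values. They are descriptions only. In an exact two-sided permutation test over the arrays, each of these 5 differences had p = 0.10, also after Benjamini-Hochberg adjustment over the 5 pairs. That is the smallest value that 3 against 3 arrays allow, with 20 regroupings. The same exact permutation test gave p = 0.10 for the changes of Lhx9 and of Isl1 themselves.

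Lhx1, needed for the nephric duct and also for the gonad and the head, had intensities of 0.592, 0.992 and 0.889 on KO arrays, against 0.616, 0.489 and 0.659 on WT arrays. KO array 1 lay among the WT arrays, and the other two KO arrays lay above them. The log2 change was 0.47 ± 0.21 (SE, 95% interval 0.00 to 0.93) and did not pass the test (adjusted p = 0.0999, limma). Without KO array 1 it was 0.69 with adjusted p = 0.00551, and over the other alternatives the adjusted p ran up to 0.302. The call on Lhx1 thus rested on a single array.

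Lhx4, a gene of pituitary and motor neuron development, had intensities of 0.724, 0.604 and 0.946 on KO arrays, against 0.482, 0.585 and 0.743 on WT arrays (log2 change 0.33, 95% interval -0.14 to 0.80, adjusted p = 0.244, limma). Lmx1b, which sets the dorsal side of the limb and is used by podocytes, had 0.504, 0.268 and 0.161 on KO arrays, against 0.397, 0.352 and 0.403 on WT arrays. In both genes the genotypes overlapped, and the KO arrays of Lmx1b were spread from above to below all WT arrays. For Lmx1b the log2 change was -0.46 with a 95% interval of -1.32 to 0.41 (adjusted p = 0.381, limma), so a fall of more than 2-fold could not be told from no change. Lhx1, Lhx2, Lhx4 and Lmx1b were all dimmer on average than the median probe, whose intensity was 0.949, while Lhx9 and Isl1 were brighter.

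Lhx5, Lhx6 and Lhx8, genes known mainly from the forebrain, were not tested because they were dim. Over their 18 values, intensities ran from 0.0147 to 0.264. Lhx5 had 0.154, 0.264 and 0.119 on KO arrays, against 0.213, 0.106 and 0.182 on WT arrays. Lhx6 had 0.0801, 0.133 and 0.0925 on KO arrays, against 0.212, 0.127 and 0.175 on WT arrays. Lhx8, used in the forebrain and in oocytes, had 0.119, 0.245 and 0.249 on KO arrays, against 0.179, 0.110 and 0.0147 on WT arrays. All 3 genes overlapped between genotypes and stayed near or under the limit on every array, so these data bound their signal and do not show whether the genes were expressed.

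The genes whose proteins serve LIM homeodomain factors shifted in both directions. Of the 10 cofactor and LIM-only genes listed, 8 had a named probe and all 8 were tested. Of these, 4 fell, beside 17.2% of all tested probes, and 1 rose, beside 24.1% of all tested probes, with a median log2 change of -0.15 against 0.09 over all tested probes. This list too was chosen with earlier results of these data known, so its shares are descriptions only. No probe was named Ssbp3 or Lmo3.

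The LDB pair moved apart. Ldb1, the general LIM-binding cofactor, had intensities of 1.93, 2.07 and 2.16 on KO arrays, against 3.30, 3.03 and 3.41 on WT arrays, a 1.58-fold fall (log2 change -0.66 ± 0.09, SE, adjusted p = 0.000125, limma). Ldb2, its close relative, had 28.5, 34.1 and 33.7 on KO arrays, against 21.7, 21.7 and 20.5 on WT arrays, a 1.5-fold rise (log2 change 0.59 ± 0.08, adjusted p = 0.000170, limma). In neither gene did the genotypes overlap. Ssbp4, whose protein belongs to the family that protects LDB, had 2.57, 2.84 and 2.42 on KO arrays, against 4.69, 4.66 and 4.06 on WT arrays and fell 1.71-fold (adjusted p = 5.83e-05, limma). Its relative Ssbp2 did not pass on either of its probes, with log2 changes of 0.04 (95% interval -0.15 to 0.23) on the brighter and -0.02 on the dimmer, and the sign of the brighter turned under quantile and cyclic loess normalization.

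Among the LIM-only genes, Lmo2, known from blood and vessel development, fell 1.44-fold to 1.32 ± 0.157 in KO, against 1.90 ± 0.0641 in WT (SD, n = 3 each, adjusted p = 0.00228, limma). Lmo1 fell 1.27-fold to 7.31 ± 0.822 in KO, against 9.22 ± 0.385 in WT (adjusted p = 0.00968, limma), and missed the threshold without WT array 2 (adjusted p = 0.0525, limma). Lmo4 had a log2 change of 0.10 (95% interval -0.09 to 0.30) and did not pass. Rlim did not pass either, with log2 changes of 0.18 on its brighter probe (adjusted p = 0.0800, limma) and -0.33 on its dimmer one. The probes of Rlim thus differed in sign, the brighter one turned under quantile and cyclic loess normalization, and it passed without KO array 1 (adjusted p = 0.00579, limma).

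**Figure D3:**
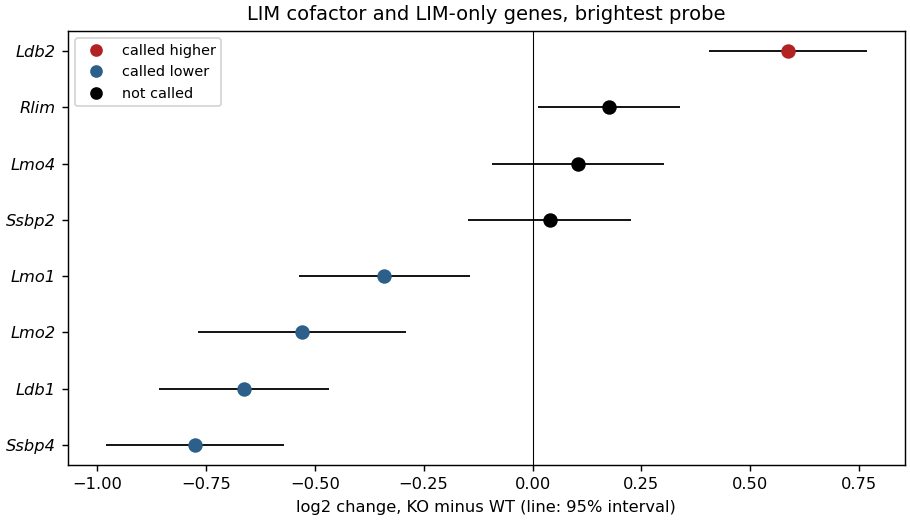
Log2 change, KO minus WT, of the brightest probe of each LIM cofactor or LIM-only gene, with its 95% interval. Ldb2 lies to the right of 0, Ssbp4, Ldb1, Lmo2 and Lmo1 lie to the left, and Rlim, Lmo4 and Ssbp2 did not pass the test.

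Most regulators of the gonadal primordium on the array fell together with Lhx9. Of 9 tested genes of that list, 7 fell (77.8%, beside 17.2% of all tested probes) and 1 rose (11.1%, beside 24.1%). The median log2 change was -0.63, against 0.09 over all tested probes. The list was chosen with earlier results of these data known, so these shares are descriptions only. The largest falls were in Amhr2, which encodes a receptor of anti-Müllerian hormone (log2 change -6.00), in Nr0b1, the gene of DAX1, a nuclear receptor (-1.81), in Zfpm2, a cofactor of GATA4 that was at least 2.54-fold lower, and in the transcriptional co-regulator gene Cited2 (-1.24). Zfpm2 was bright enough for the test only through its WT values, so it could only be called lower. Nr5a1, whose promoter LHX9 protein can bind, fell less than Lhx9 did, 1.32-fold. Its brighter probe had 2.13, 2.01 and 2.20 on KO arrays, against 2.80, 2.67 and 2.89 on WT arrays (log2 change -0.40 ± 0.09, SE, adjusted p = 0.00287, limma), and its second probe was too dim to be tested. Emx2, a homeobox gene the ridge needs, fell 1.54-fold (adjusted p = 0.000116, limma). Gata4 had a log2 change of -0.06 and did not pass (adjusted p = 0.628, limma), with the sign turned under quantile normalization, and Tcf21 rose 1.3-fold (adjusted p = 0.000843, limma). Nr5a1, Emx2, Gata4, Tcf21, Cdh16, Neurog1, Gata2, Kdm5d, Kdm6a and Kdm5c fall outside the naming rule. They were chosen after their values were seen, as were dim or unnamed genes singled out in the lists.

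The profiles most like that of Lhx9 were sought among 7495 other genes brighter than the median probe. Likeness was the root-mean-square distance between log2 profiles over the 6 arrays, each centred on its own mean. The nearest were Cyp1b1, a cytochrome P450 gene (distance 0.11, log2 change -1.85), Txndc12, a thioredoxin-like gene of the endoplasmic reticulum (0.12, -1.89), Acaa2, a mitochondrial fatty acid oxidation gene (0.12, -2.04), Aebp1, a gene of the extracellular matrix (0.12, -1.75), and Evl, a regulator of actin filaments (0.13, -1.81). All 5 fell, at adjusted p of 1.24e-06 or less (limma), and their Pearson correlation with Lhx9 was at least 0.99. The 5 were picked by their distance to the Lhx9 profile, so their fall, p-values and correlation followed from that choice. With 6 arrays in 2 genotypes, a correlation of this kind mostly restates the difference between genotypes.

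**Figure D4:**
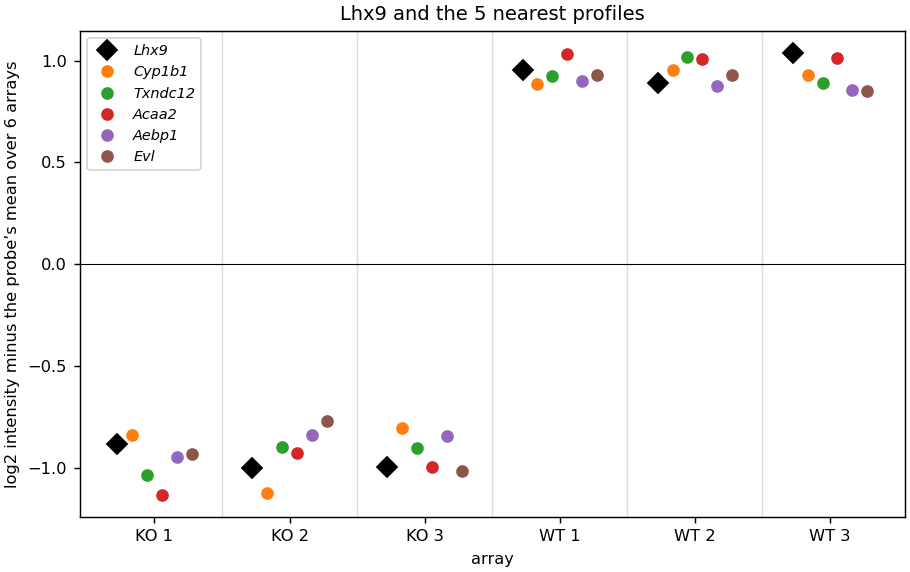
Log2 intensity of Lhx9 (black diamonds) and of its 5 nearest genes on each array, minus each probe's own mean over the 6 arrays. All 6 genes lie below 0 on the KO arrays and above 0 on the WT arrays, and the order of the genes differs from array to array.

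Lists for the tissues in which Isl1 and its relatives are known to act were described beside these results, and the part of such tissue in the LIM homeobox changes was not tested. These lists were chosen with earlier results of these data known, so their shares beside those of the array are descriptions only. Genes of the nephric duct and tubule, where Lhx1 acts, went both ways. Of 9 tested, 3 rose (33.3%, beside 24.1% of all tested probes), 1 fell (11.1%, beside 17.2%) and 5 did not pass. Without KO array 1 there were 2 that fell, as Cdh16 passed too (log2 change -0.23, adjusted p = 0.0161, limma). The list had a summed intensity of 37.6 to 39.3 on KO arrays, against 31.2 to 32.7 on WT arrays. The members that rose were the duct factor Gata3 (log2 change 0.79), the intermediate mesoderm gene Osr1 (0.63) and the receptor gene Ret (0.41), while the epithelial cadherin gene Cdh1 fell (-0.91).

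Most tested pan-neuronal and neural tube genes of the lists were higher on KO arrays. Of 8 tested pan-neuronal genes 7 rose (87.5%, beside 24.1% of all tested probes), led by Dcx, Tubb3, Elavl3 and Stmn2, with log2 changes of 1.73, 1.73, 1.45 and 1.38. The summed intensity of that list was 53.2 to 53.6 on KO arrays, against 27.0 to 27.5 on WT arrays. A second, dim probe of Dcx had a log2 change of -0.03. Of 11 tested genes of spinal interneurons and the neural tube, 7 rose (63.6%, beside 24.1% of all tested probes) and 3 did not pass. The 1 that fell (9.09%, beside 17.2%) was Gata2 (log2 change -0.63, adjusted p = 0.00394, limma). Lmx1a, the roof plate gene outside this list, fell too. Dbx1, Neurog1 and Slc17a6 were bright enough for the test only through their KO values, so they could only be called higher. The call on Neurog1 was lost under quantile and cyclic loess normalization, and without KO array 2 or 3 or any 1 of the WT arrays. The largest changes were in Zic1 (log2 change 4.28), Dbx1 (at least 6.44-fold higher), Slc17a6, a vesicular glutamate transporter gene (at least 2.53-fold higher) and En1 (log2 change 1.61). A second probe of Slc17a6 was too dim to be tested, with 0.204, 0.0980 and 0.156 on KO arrays, against 0.0193, 0.185 and 0.231 on WT arrays. The summed intensity of this list was 39.6 to 42.2 on KO arrays, against 8.51 to 8.91 on WT arrays. Zic1 made up most of the KO sum but not of the WT sum, with 27.7 to 30.8 on KO arrays, against 1.42 to 1.64 on WT arrays. Barhl1, Lbx1 and Evx2 lay at or under the limit for dim probes on every array.

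Most motor neuron genes with a probe were dim. Olig2 lay under the limit on all arrays, Slc18a3, Slc5a7 and Neurog2 had mean log2 values under it and were not tested, and no probe was named Mnx1, Chat or Nkx6-1. Of the 2 tested genes of that list, Prph, the gene of the peripheral neurofilament protein peripherin, rose 1.47-fold (adjusted p = 0.00102, limma), 1 of 2 beside 24.1% of all tested probes, and Foxp1 had a log2 change of 0.01 with a sign that turned under quantile and cyclic loess normalization. Neurog2, a gene of neural progenitors, had 0.117, 0.440 and 0.520 on KO arrays, against 0.0214, 0.169 and 0.229 on WT arrays. Without KO array 1 it was bright enough to be tested, but only through its KO values, so it could only be called higher. It then passed (adjusted p = 0.0136, limma), so that 2 genes of the list were called. In that setting 48.6% of all tested probes were called. The summed intensity of the list, mostly Foxp1, was 20.4 to 27.2 on KO arrays, against 20.4 to 22.9 on WT arrays. Of 5 tested genes of sensory and sympathetic ganglia, Sox10, of neural crest and glia, and Th, of catecholamine synthesis, rose, by 1.21 and 1.13 on the log2 scale, and 3 did not pass (40.0% rose, beside 24.1% of all tested probes). Their summed intensity was 39.4 to 40.5 on KO arrays, against 28.8 to 30.1 on WT arrays.

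Genes of stomach and spleen mesenchyme were also higher on KO arrays, and endocrine genes in part. All 4 tested genes of stomach and spleen mesenchyme rose, beside 24.1% of all tested probes: Tlx1 by 2.76 and Barx1 by 2.49 on the log2 scale, Nkx2-5 at least 3.01-fold and Nkx3-2 1.41-fold, the last with a call that was lost without KO array 2 or 3 or WT array 1 or 3 and without the filter on dim probes. Nkx2-5 was bright enough for the test only through its KO values, so it could only be called higher. The summed intensity of this list was 25.4 to 28.4 on KO arrays, against 5.07 to 5.84 on WT arrays. Most of it came from Barx1, with 21.4 to 24.7 on KO arrays, against 3.95 to 4.41 on WT arrays. Foxf1 and Foxl1 were too dim to be tested. Of 7 tested pancreatic and gut endocrine genes, 3 rose (42.9%, beside 24.1%) and 4 did not pass, and Pdx1, a pancreas factor gene, was too dim to be tested. Gcg, the glucagon precursor gene, was at least 13.3-fold higher, Pyy, of peptide YY, rose by 3.40 on the log2 scale, and Nkx2-2, an islet and neural factor gene, was at least 2.54-fold higher. Gcg and Nkx2-2 were bright enough for the test only through their KO values, so they could only be called higher. Without any 1 of the KO arrays Nkx2-2 was too dim to be tested. The same held with no floor and with the floor at the 1st percentile. The summed intensity of the endocrine list was 19.1 to 19.6 on KO arrays, against 4.78 to 5.13 on WT arrays. Pyy made up most of the KO sum, with 11.1 to 11.9 on KO arrays, against 1.05 to 1.18 on WT arrays.

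The limb bud list, which covers the tissue where Lhx2, Lhx9 and Lmx1b act together, was mixed. Of 10 tested genes, 3 rose (30%, beside 24.1% of all tested probes), 2 fell (20%, beside 17.2%) and 5 did not pass, shares near those of the array. Msx1 fell (log2 change -0.89), while Grem1, Wnt7a and Tbx5 rose, by 0.47, 0.45 and 0.29. The counts moved with single arrays: 6 rose without KO array 1, and 1 rose and 1 fell without WT array 1 or WT array 2, while 1 fell without KO array 2. The call on Tbx5 was lost without WT array 1 or 2 (adjusted p up to 0.0831, limma). The call on Grem1 was lost without KO array 2 or any 1 of the WT arrays, and with no filter on dim probes (adjusted p up to 0.0701, limma). The summed intensity was 36.6 to 39.5 on KO arrays, against 35.6 to 35.8 on WT arrays, and Shh lay under the limit for dim probes on every array.

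**Figure D5:**
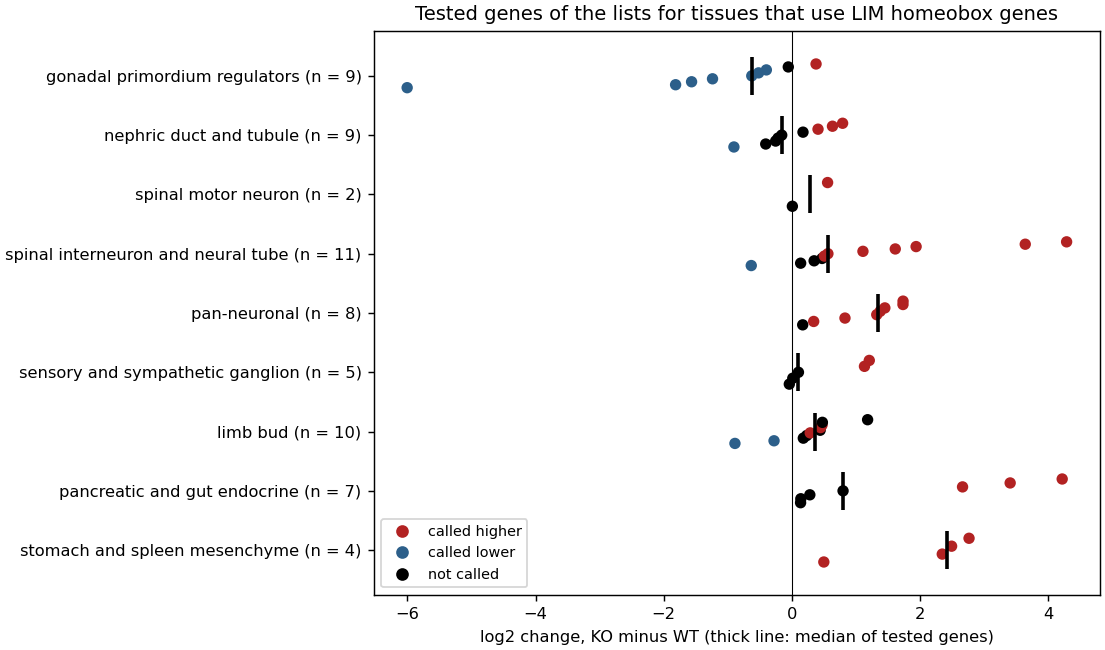
Log2 change, KO minus WT, of the tested genes of each list, coloured by call, with the median as a thick line. Gonadal regulators lie mostly left of 0 (median -0.63), and the pan-neuronal (1.35) and the stomach and spleen (2.42) lists lie right of it.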

How the data were processed

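Total RNA carrying biotin was read on CodeLink Mouse 20k arrays in 1 colour, per the labels. Each deposited value is the intensity of a spot, not on a log scale. Scanner software, background correction and spot flags are not stated in the sources used here. Of 20289 probes, 20077 to 20099 had a value on an array, and the number of arrays limits the precision.

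Values under the 5th percentile of positive values (intensity 0.0811) were set to it and log2 was taken, with no further normalization because array medians differed by 0.0153, under a limit of 0.1. Probes with values on at least 2 arrays of each genotype and a mean log2 value above the 25th percentile were tested, with limma 3.58.1 in R 4.3.3 (lmFit, eBayes with an intensity trend), genotype as the only term, and two-sided Benjamini-Hochberg adjustment over all 15062 tested probes. The fit was tested on simulated data. Intensities are given as mean ± SD before the floor. A fold is a lower bound where 1 genotype's mean lay under the limit for dim probes, and was then set, per array, against whichever was higher, that limit or the measured intensity.

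The platform annotation, which can be old, gave 1 symbol for 15120 probes, several for 38 (not used) and did not list 5131. Symbols were updated by Entrez identifier to RefSeq (GRCm38.p6), where 56 had no match. A gene is represented by its brightest probe. The members and lists were chosen with earlier results of these data known. Genes named are all members, Wt1, all cofactors, up to 4 passing genes of each list with the largest change (the 2 brightest where fewer than 2 passed) and the 5 nearest to Lhx9. The alternatives were other normalizations, floors and filters, no trend, a replicate block and leaving out each array.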

Additional observations from a re-analysis of the deposited data

How the results depend on the processing

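Lhx9, Isl1 and Lmx1a kept their direction and their call under all 15 alternatives. The log2 change of Lhx9 ran from -1.96 to -1.88 and its adjusted p up to 0.000206, and that of Isl1 ran from 0.84 to 1.0 with adjusted p up to 0.00221 (limma). Lhx1, Lhx2, Lhx4 and Lmx1b could not be fitted among probes above the median probe, which they do not reach, and kept their direction under the other 14. Lhx1 passed without KO array 1, so that 2 members were called higher, and over the arrays left out in turn the number called higher was 1 to 2. The LIM cofactor list likewise had 1 to 2 genes called higher, with Rlim added without KO array 1. No member has a second probe, so that alternative was not run. Some genes that did not pass changed sign. Under quantile and cyclic loess normalization, Ssbp2 had log2 changes of -0.14 and -0.11, Rlim of -0.027 and -0.0031 and Foxp1 of -0.12 and -0.13, and Gata4 had 0.010 under quantile normalization. Among probes above the median probe, fewer genes were tested, and 3 neural tube genes, 1 endocrine gene and 1 stomach gene were called higher. With each array left out in turn, the log2 change of Ssbp2 ran from -0.017 to 0.12 and the log2 change of Foxp1 from -0.15 to 0.095. Deviations of same-numbered arrays correlated at 0.0005, -0.0208 and -0.0057, and those of other KO and WT pairs at -0.0205 to 0.0253. The numbers in the titles thus gave no sign of pairing, which does not show that the samples were unpaired. With the replicate block, 3453 probes were called higher and 2566 lower, against 3625 and 2596, and Lhx9 had a log2 change of -1.92 with adjusted p = 8.69e-08 (limma). Over all alternatives 29.3% to 55.2% of tested probes were called. The dim signal of Lhx5, Lhx6 and Lhx8 limits what these arrays show of them.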
